A study of Mus musculus with 6 samples.

Results

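The dual-specificity phosphatases Dusp1, Dusp2, Dusp4, Dusp5, Dusp6, Dusp10 and Dusp16 remove phosphate from MAP kinases, and accessible chromatin was mapped around their 7 genes in mouse CD4 T cells before and during Th17 culture. The 3 peak lists, 1 per condition, were joined by merging any peaks with 1 bp or more in common, and a merged region was taken when it overlapped one of these gene bodies (RefSeq, GRCm38) with 50 kb on each side. This gave 138 regions of 81315 over the genome. All 7 genes were found once in the RefSeq table, on 7 different chromosomes, and no region was shared between them.

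The method was ATAC-seq, in which the Tn5 transposase cuts and tags open DNA. The cells were naive CD4+ T cells of C57BL/6 mice left untreated, and Th17 cells grown from such cells for 48 h or 72 h with plate-bound anti-CD3ε (0.25 μg/mL) and anti-CD28 (1 μg/mL), which stand in for antigen and costimulation, and with TGF-β (0.1 ng/mL) and IL-6 (20 ng/mL). Each condition has 2 libraries, but 1 peak list per condition was analysed, so no difference has a replicate check and no p-value is given. The sources used here do not give the age, sex or number of mice. Read depth is unknown, since the lists hold neither reads nor signal.

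MAP kinases carry signals from the T cell receptor, CD28 and cytokine receptors, and are switched on by phosphorylation of a threonine and a tyrosine close together in the protein. The phosphatases of this family remove both phosphates and so end or limit the signal. Several of their genes are themselves switched on by MAP kinase signals, which makes them feedback brakes. DUSP1, DUSP2, DUSP4 and DUSP5 are nuclear enzymes encoded by early response genes, DUSP6 is a cytoplasmic enzyme selective for ERK, and DUSP10 and DUSP16 act mainly on the stress kinases JNK and p38.

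The 6 Dusp promoters that could be examined overlapped a peak in every list. RefSeq promoter sequences of GRCm38.p6, which span 250 bases before to 50 after the start site, were found for 6 of the 7 genes, all but Dusp4, and all 6 windows overlapped a peak in naive cells, at 48 h and at 72 h. Over the genome this held for 47.5% of 17493 protein-coding genes with such a window, so a peak in all 3 lists is common there. The 250 bases before the start site are shown for 4 of them, because all of these bases lay under a peak in each list and because they differ in the motifs they hold. Capitals mark the motifs found.
Dusp1, chr17:26508473-26508722, minus strand: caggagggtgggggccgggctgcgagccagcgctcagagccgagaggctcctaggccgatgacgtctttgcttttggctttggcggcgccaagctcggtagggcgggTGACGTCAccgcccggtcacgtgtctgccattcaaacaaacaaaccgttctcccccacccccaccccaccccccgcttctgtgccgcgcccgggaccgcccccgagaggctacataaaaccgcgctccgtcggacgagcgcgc
Dusp5, chr19:53528895-53529144, plus strand: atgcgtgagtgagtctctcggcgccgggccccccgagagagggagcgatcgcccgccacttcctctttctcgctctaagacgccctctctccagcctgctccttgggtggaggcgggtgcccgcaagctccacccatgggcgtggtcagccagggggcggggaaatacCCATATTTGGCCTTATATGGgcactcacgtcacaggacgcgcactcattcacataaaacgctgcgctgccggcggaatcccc
Dusp6, chr10:99262981-99263230, plus strand: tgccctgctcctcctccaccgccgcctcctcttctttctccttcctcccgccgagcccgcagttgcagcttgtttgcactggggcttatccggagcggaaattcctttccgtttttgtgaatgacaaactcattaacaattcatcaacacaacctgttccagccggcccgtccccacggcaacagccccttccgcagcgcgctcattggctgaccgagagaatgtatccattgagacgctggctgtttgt
Dusp16, chr6:134792629-134792878, minus strand: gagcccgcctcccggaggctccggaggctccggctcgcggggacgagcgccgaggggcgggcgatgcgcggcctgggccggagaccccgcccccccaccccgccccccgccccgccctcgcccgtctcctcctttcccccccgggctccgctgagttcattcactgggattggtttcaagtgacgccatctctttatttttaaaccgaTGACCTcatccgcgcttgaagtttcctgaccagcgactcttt

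The motifs were searched on both strands of the 250 bases before the start site, in the 32851 promoters of the table. The cAMP response element TGACGTCA, bound by CREB and ATF factors, was found in Dusp1 at positions -143 to -136, counted back from the start site, and in 1.55% of all promoters. The CArG box, the site of serum response factor, stood at positions -82 to -73 and again at -72 to -63 of Dusp5, without overlap, and 1.47% of all promoters held at least 1. The ROR core site AGGTCA was found in Dusp16 as its complement TGACCT at positions -42 to -37, and in 14.0% of promoters. None of the 6 Dusp promoters held the AP-1 letters TGANTCA (6.75% of promoters), the RUNX letters TGTGGT (14.0%) or the ETS letters CCGGAA (12%), and Dusp2, Dusp6 and Dusp10 held none of the 6 motifs. A match describes letters only and not a bound factor.

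The peaks over these promoters were of similar place in the 3 lists. At Dusp1 the peak was 1133 bp wide in naive cells, 1309 bp at 48 h and 1192 bp at 72 h, and at Dusp16 it was 409, 405 and 408 bp in the same order. At Dusp6 the naive peak was 595 bp wide and those at 48 h and 72 h were 399 and 468 bp. At Dusp10 the peak over the promoter was 1208 bp wide in naive cells, 552 bp at 48 h and 1118 bp at 72 h. The merged region there held 2 peaks at 48 h and 1 in each other list, so the 552 bp are only a part of its 48 h extent. The score deposited for each peak by the authors, whose scale is not stated and which the naive list lacks, reached 360 for the Dusp10 promoter at 72 h, the 98.8th percentile of that list, while the Dusp2 promoter had 70, the 45.9th percentile. Each of the 6 promoters thus held a peak in every list, while peak widths differed between lists at some of them. Widths also differed over the genome. For the 20812 regions in all 3 lists the median was 506 bp in naive cells, 337 bp at 48 h and 438 bp at 72 h.

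**Figure D1:**
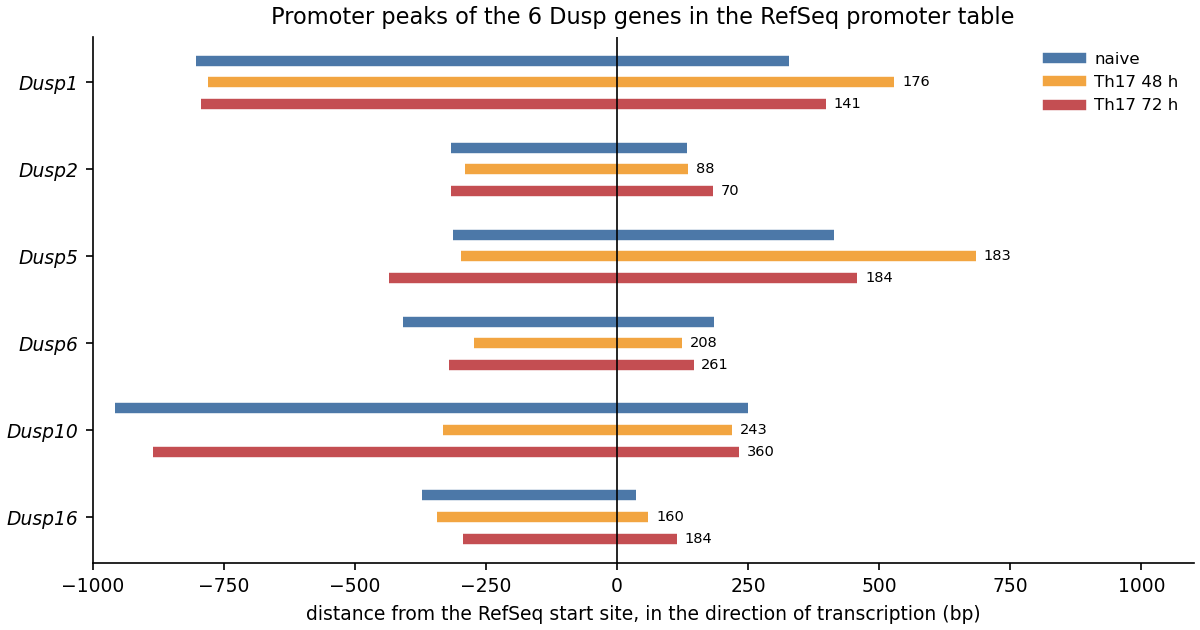
Each bar is a peak over the promoter of a Dusp gene, placed by its distance in bp from the RefSeq start site, with naive, 48 h and 72 h peaks drawn one under the other and the authors' score beside those that have one. All 18 peaks cross the start site, and the Dusp10 peak at 72 h has the highest score, 360.

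In all, the 138 regions comprised 88 present in naive cells, 57 at 48 h and 78 at 72 h. Regions in all 3 lists numbered 29, 21.0% of the 138, beside 25.6% of all merged regions. Regions at 48 h and 72 h only numbered 14 (10.1%, beside 13.1%), and regions at 72 h only 25 (18.1%, beside 18.3%). A further 11 were at 48 h only (7.97%, beside 4.73%), 10 in naive cells and at 72 h (7.25%, beside 6.86%) and 3 in naive cells and at 48 h (2.17%, beside 2.57%), and the other 46 were in naive cells only. A region is called gained where the first-named condition has a peak and the other has none, and lost in the opposite case. At 48 h against naive cells, 25 of the 57 regions of the 48 h list were gained, which is 43.9% (exact 95% binomial interval 30.7 to 57.6%, counting error only), beside 38.8% over the genome. Of the 88 naive regions 56 were lost at 48 h, 63.6% (52.7 to 73.6%), beside 55.9% over the genome. At 72 h against naive cells, 39 of 78 regions were gained, 50% (38.5 to 61.5%), beside 49.2%, and 49 of 88 were lost, 55.7% (44.7 to 66.3%), beside 49.2%. As a group, then, the Dusp regions lay near the background in both comparisons with naive cells. These comparisons share the naive list, and in bulk chromatin fewer cells with an open site and less opening per cell cannot be told apart.

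Between the culture times, 35 of the 78 regions at 72 h were absent at 48 h, 44.9% (33.6 to 56.6%), beside 39.4% over the genome. Of the 57 regions at 48 h, 14 were absent at 72 h, 24.6% (14.1 to 37.8%), beside 15.9%. Of the 7 genes 5 had more gained than lost regions there, as did 67.5% of all genes, and 1, Dusp6, had more lost (11.4% of all genes). The number of gained minus lost regions per gene ran from -10 to 0 at 48 h and from -12 to 3 at 72 h against naive cells, with medians of -5 and 0, beside medians of -1 and 0 over the 18222 protein-coding genes that had a region in such a window. At 48 h, 6 of the 7 genes had more lost than gained regions, as did 61.8% of all genes, and at 72 h 3 had more lost (43.0% of all genes), 2 more gained (40.5%) and 2 equal numbers. The windows held 11.6 to 19.5 regions per 100 kb, beside a median of 6.68 over those genes.

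**Figure D2:**
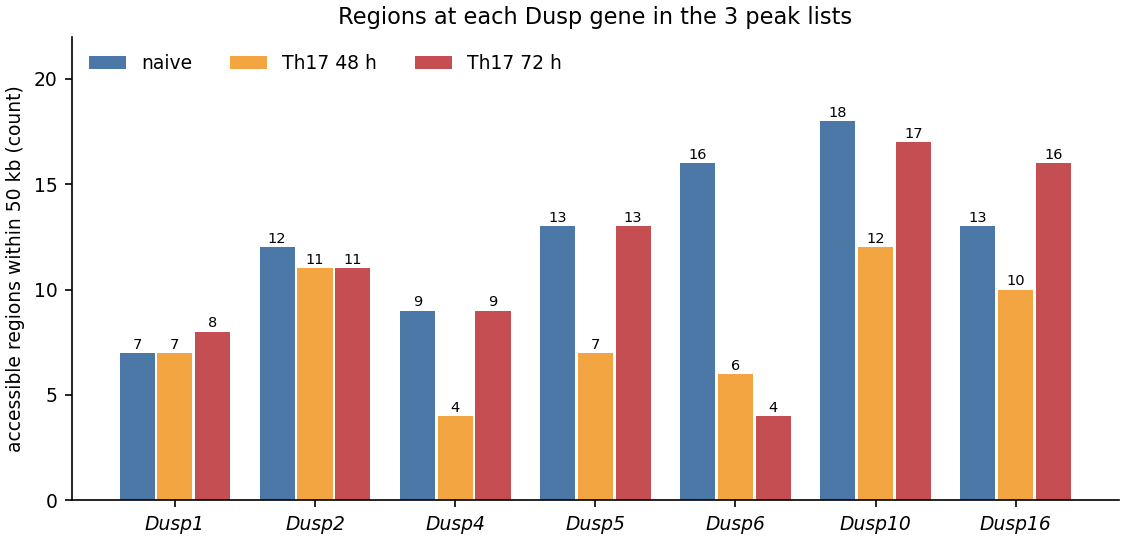
Bars give the number of accessible regions within 50 kb of each Dusp gene in the naive, 48 h and 72 h lists. Dusp6 has 16, 6 and 4 regions, Dusp4 has 9, 4 and 9, and Dusp16 has 13, 10 and 16.

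**Figure D3:**
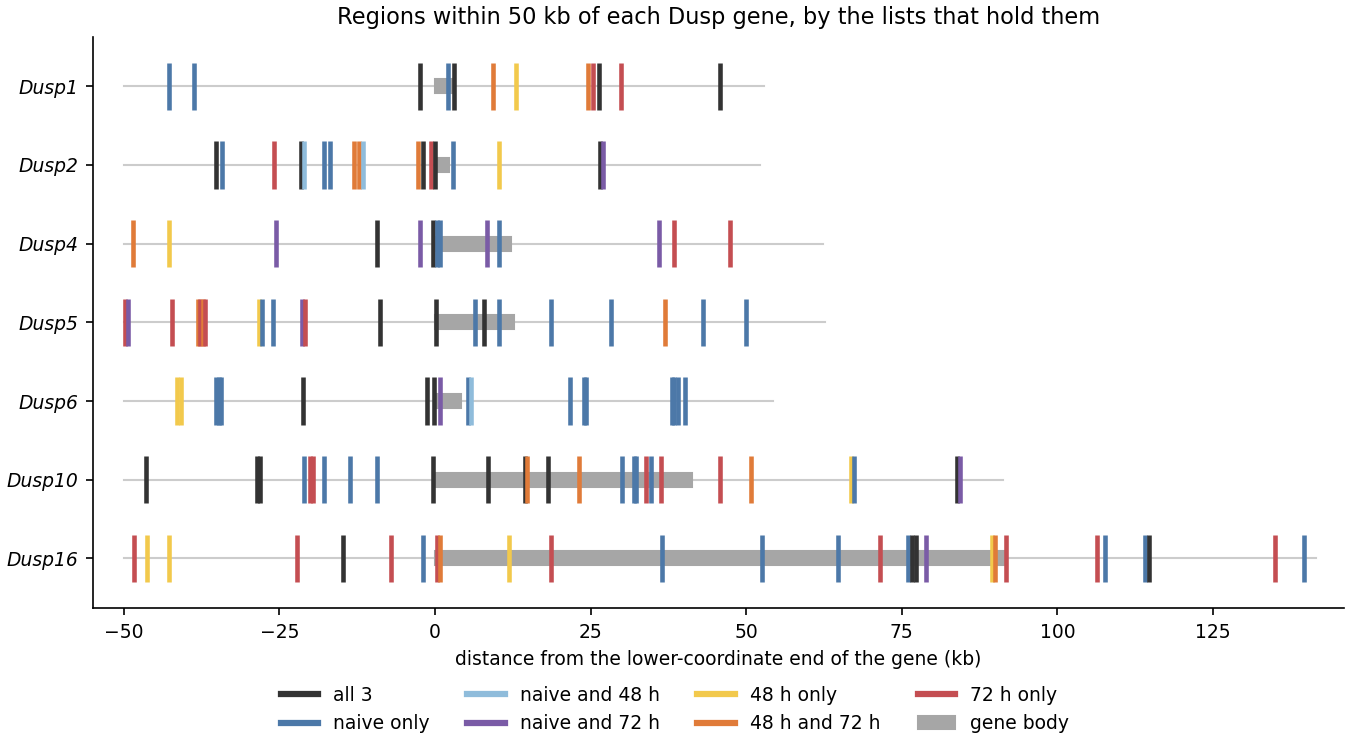
Each tick is the middle of a region, placed by its distance in kb from the lower-coordinate end of the gene, and its colour gives the lists that hold it. Grey boxes are gene bodies, and the regions on either side of Dusp6 beyond 10 kb are mostly naive only.

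Dusp6, the cytoplasmic phosphatase of ERK, lost most of its naive regions, and gained 2 regions at 48 h and 0 at 72 h. Its window held 16 regions in naive cells, 6 at 48 h and 4 at 72 h. At 48 h, 2 of 6 regions were gained, 33.3% (4.33 to 77.7%), beside 38.8% over the genome. Of the 16 naive regions 12 were lost there, 75.0% (47.6 to 92.7%), beside 55.9%. At 72 h 0 of 4 were gained and 12 of 16 lost, again 75.0% (47.6 to 92.7%), beside 49.2% over the genome. The gain of 0 of 4 regions allows a share of up to 60.2%, and 49.2% of 72 h regions were gained over the genome. The interval of the loss, the same at both times, also takes in the genome's share at each. It treats regions as separate, though several lie close together.

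The 4 regions that Dusp6 kept at 72 h were close to the gene or wide. They were the promoter region, chr10:99262823-99263417, with scores of 208 at 48 h and 261 at 72 h, a region 0.894 kb upstream of the gene, chr10:99261418-99262336, with scores of 81 and 151, and a region 20.5 kb upstream, chr10:99241420-99242696, with scores of 96 and 127. The last of these had a naive peak of 1277 bp, at the 98.8th percentile of naive widths. The fourth, chr10:99263844-99264118 inside the gene, had a naive peak of 275 bp, none at 48 h and a peak of 102 bp with a score of 38 at 72 h.

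Of the 12 Dusp6 regions lost at 72 h, 10 lay more than 10 kb from the gene. Beyond 10 kb the window held 1 region at 72 h, against 11 in naive cells, and 10 of the 11 were in naive cells only. The other 2 lost regions lay 1.02 and 1.42 kb downstream of the gene, with naive peaks of 198 and 120 bp, and the second still had a peak at 48 h with a score of 40. Downstream of the gene the widest were chr10:99284618-99285213, 17.1 kb away with a naive peak of 596 bp, and chr10:99302013-99302525, 34.5 kb away with 513 bp. Upstream the widest was chr10:99227918-99228311, 34.9 kb away with 394 bp. The only regions absent from naive cells were at 48 h alone, 41.4 and 40.8 kb upstream with scores of 56 and 63, and they are named because they are the only 2. Naive peaks of the 12 regions lost at 72 h were 120 to 596 bp wide, and those of the 4 kept were 275 to 1277 bp wide.

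Other genes set the scale for Dusp6. Among the 4789 protein-coding genes with at least 10 naive regions in their window, 469 (9.79%) gained 0 regions at 72 h. Of these, 8 lost 12 or more, and Dusp6 is itself counted among the 8. Neighbouring genes share regions, so these genes are not independent. A balance of gained minus lost regions as low as the -12 of Dusp6 was seen at 0.439% of all genes at 72 h, and one as low as its -10 at 48 h at 2.59%. Most genes have too few regions to reach -12, since only 3098 (17.0%) have 12 or more naive regions. Among these 80 (2.58%), Dusp6 included, had a balance of -12 or lower at 72 h. With 10 kb on each side in place of 50 kb, 2 regions were lost and 0 gained at 72 h. With 100 kb, 21 were lost and 2 gained. With peaks within 200 bp merged, in the 50 kb window, 7 were lost and 0 gained, so the count of 12 holds several regions that lie close together.

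**Figure D4:**
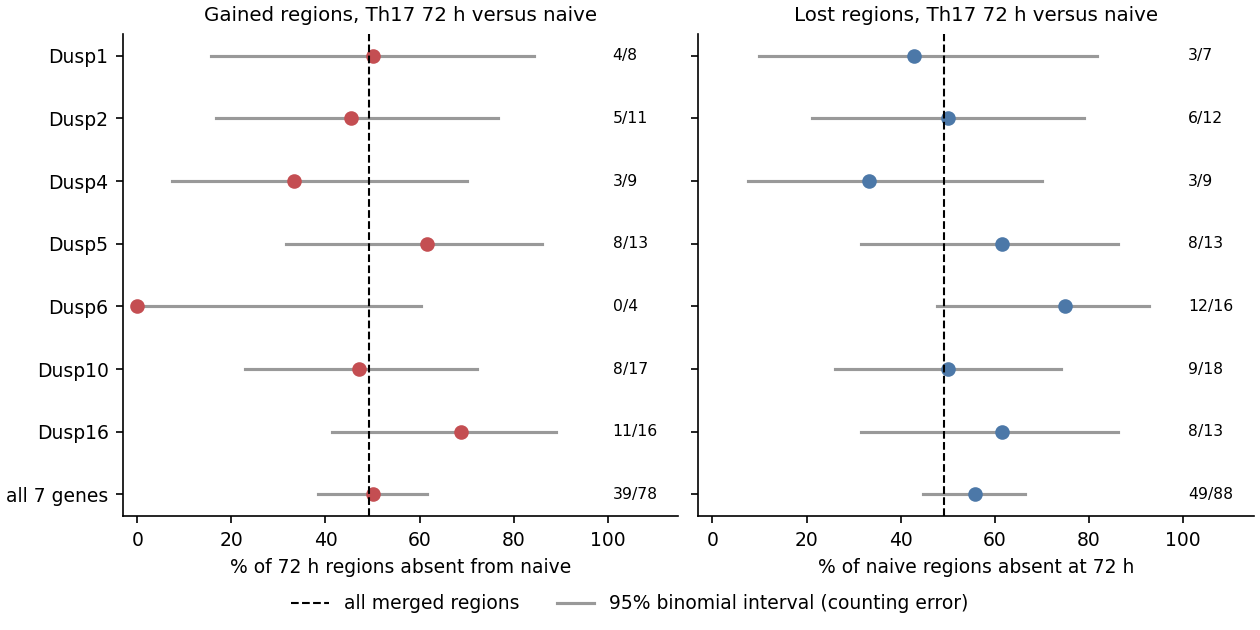
Points are the percentage of 72 h regions absent from naive cells (left) and of naive regions absent at 72 h (right) for each Dusp gene, with counts at the right edge, and bars are exact 95% binomial intervals for counting error. The dashed line is the share over all merged regions, 49.2% on both sides, and the Dusp6 points lie at 0 and 75.0%.

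Dusp4, a nuclear phosphatase of ERK and JNK, had few regions at 48 h and as many at 72 h as in naive cells. Its counts were 9 in naive cells, 4 at 48 h and 9 at 72 h. At 48 h, 2 regions were gained and 7 lost, and at 72 h 3 were gained and 3 lost. Between the culture times 6 of the 9 regions at 72 h were new against 48 h and 1 of 4 was lost. These shares were 66.7% (29.9 to 92.5%) and 25.0% (0.631 to 80.6%), beside 39.4% and 15.9% over the genome. Its balance of 5 in that comparison was reached by 7.7% of all genes.

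Of the 6 Dusp4 regions present in naive cells and at 72 h, 4 had no 48 h peak, beside 21.1% of such regions over the genome. Their 72 h scores were 33, 49, 59 and 86. In that range of scores, which these 4 set, 4 of 5 such Dusp4 regions lacked a 48 h peak. Over the genome 43.6% of 10189 such regions in the range lacked one. Because the regions without a 48 h peak set the range, the 4 of 5 is not an independent comparison. With 48 h and 72 h peaks of a score of at least 50, Dusp4 had 1 gained and 6 lost regions at 72 h. All naive peaks were kept there, since they have no score, so that setting favours losses. The 48 h list is the shortest, with 53259 peaks in naive cells, 40624 at 48 h and 53926 at 72 h, and the part of this in the missing 48 h peaks was not tested.

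Inside the Dusp4 gene the naive cells had the larger set. The region across its lower-coordinate end, chr8:34806886-34807635, had a peak of 732 bp in naive cells, 300 bp at 48 h and 582 bp at 72 h, with scores of 76 and 120 at the culture times. Next to it, chr8:34807761-34808158 and chr8:34808282-34808566 were present in naive cells only, as was chr8:34817671-34818102 near the other end. Between them chr8:34815450-34816397 held a naive peak of 948 bp, the 94.5th percentile of naive widths, no 48 h peak and a 72 h peak of 180 bp. The gene body thus touched 5 regions in naive cells, 1 at 48 h and 2 at 72 h. All 3 regions gained at 72 h lay more than 10 kb away, and 2 of them were inside Tnks, the neighbouring gene for a tankyrase.

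Dusp5, a nuclear phosphatase selective for ERK, had both gained and lost distal regions. It had 13 regions in naive cells, 7 at 48 h and 13 at 72 h, with 4 gained and 10 lost at 48 h and 8 gained and 8 lost at 72 h. The gains at 72 h all lay more than 10 kb from the gene. There the window held 10 regions at 72 h, against 7 in naive cells. Of these, 2 were in naive cells and at 72 h and 0 in all 3 lists. The strongest gain was chr19:53565827-53566535, 24.0 kb downstream of the gene, absent from naive cells. Its scores were 198 at 48 h and 288 at 72 h, the 95.9th percentile of the 72 h list.

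On the other side of Dusp5, 5 regions absent from naive cells lay 36.8 to 42.1 kb upstream. The strongest, chr19:53490995-53491226, was present at 48 h and 72 h with scores of 52 and 152, and the other 4, singled out after their values were seen, had 72 h scores of 61 to 83. Several of these lie close together. With peaks within 200 bp merged, Dusp5 had 5 gained and 8 lost regions at 72 h. Near the gene 3 regions were in all lists. These were the promoter region with scores of 183 and 184, chr19:53519915-53520627, 8.52 kb upstream, and chr19:53536765-53537301 inside the gene. The second had a naive peak of 691 bp, a 48 h peak of 236 bp and 2 peaks at 72 h, the wider of 204 bp. The last had a peak of 170 bp in naive cells, 537 bp at 48 h and 525 bp at 72 h. Naive-only regions included chr19:53539276-53539651 inside the gene and chr19:53578849-53579340, 37.0 kb downstream with a peak of 492 bp.

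Dusp1, which encodes the inducible nuclear phosphatase of p38, JNK and ERK, changed little in number. Its window held 7 regions in naive cells, 7 at 48 h and 8 at 72 h, with 3 gained and 3 lost at 48 h and 4 gained and 3 lost at 72 h. Of its 12 regions 4 were in all 3 lists. Besides the promoter these were chr17:26502842-26503613, 1.98 kb downstream of the gene, with a naive peak of 772 bp, chr17:26531769-26532102, 23.3 kb upstream, and chr17:26551089-26551555, 42.6 kb upstream. The last had a peak of 130 bp in naive cells, 458 bp at 48 h and 383 bp at 72 h, and its 72 h score of 276 was the highest at Dusp1, above the 141 of the promoter.

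The gained regions of Dusp1 had scores in the lower part of the lists. The strongest, chr17:26514746-26514989, 6.27 kb upstream, had scores of 56 at 48 h and 65 at 72 h, the 42.7th percentile of the 72 h list. Regions in naive cells only were chr17:26507585-26507775 inside the gene and 2 regions 38.6 and 42.7 kb downstream. Their naive peaks were 191, 180 and 109 bp wide.

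Dusp2, the nuclear phosphatase first found in activated lymphocytes, also had near equal numbers. It had 12 regions in naive cells, 11 at 48 h and 11 at 72 h, with 4 gained and 5 lost at 48 h and 5 gained and 6 lost at 72 h. Its upstream side held a run of regions, of which chr2:127300722-127301367, 34.8 kb away, had the highest 72 h score, 204, and peaks of 187 bp in naive cells, 416 bp at 48 h and 497 bp at 72 h. A region gained at both times, chr2:127323675-127324149, 12 kb upstream, had scores of 57 at 48 h and 116 at 72 h. The region chr2:127335384-127335529, 0.629 kb upstream, was at 72 h only with a score of 41. The sign of the balance at Dusp2 turned under 4 of 8 other settings in each comparison with naive cells, so no direction can be read from it.

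**Figure D5:**
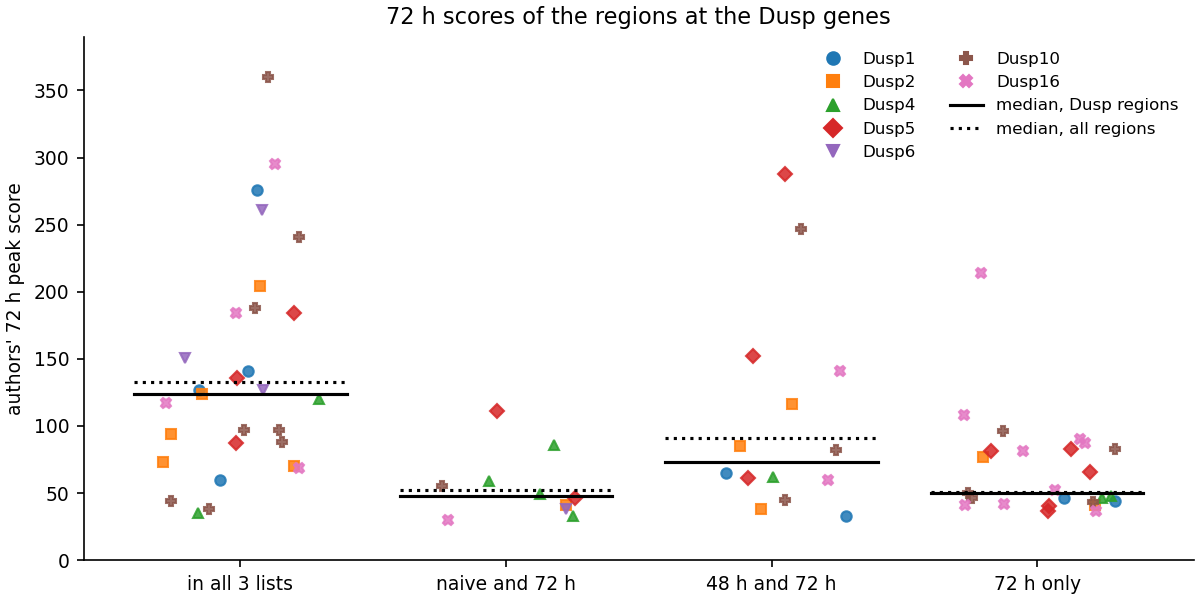
Points are the authors' 72 h scores of the regions with a 72 h peak, grouped by the lists that hold them, with a symbol for each Dusp gene. Solid lines are medians of the Dusp regions and dotted lines medians of all regions of that group, 124 and 133 for regions in all 3 lists, 47.5 and 52 for naive and 72 h, 73.5 and 91 for 48 h and 72 h, and 50 and 51 for 72 h only.

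Dusp10, a phosphatase of JNK and p38, had 27 regions in a wide window of 141.0 kb. The window held 18 regions in naive cells, 12 at 48 h and 17 at 72 h. Of the 27 regions 8 were in all 3 lists, near the 25.6% of all merged regions, beside 4 of 12 at Dusp1. At 48 h 4 were gained and 10 lost, and at 72 h 8 were gained and 9 lost. The regions in all lists included 3 distal ones upstream, of which chr1:183987656-183988157, 46.2 kb away, had scores of 97 at 48 h and 241 at 72 h, and 3 inside the gene, of which chr1:184052358-184052645 had scores of 104 and 188. Also inside the gene, chr1:184049144-184049309 and chr1:184057508-184057696 were gained at both times with 72 h scores of 45 and 82.

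The strongest gain at Dusp10 lay beyond the gene. The region chr1:184084916-184085256, 9.28 kb downstream, was absent from naive cells and had scores of 97 at 48 h and 247 at 72 h, the 92.8th percentile. The widest naive-only region, chr1:184024581-184025421, 8.96 kb upstream, had a peak of 841 bp, the 91.7th percentile of naive widths. Naive-only regions inside the gene numbered 4, from 116 to 390 bp wide. The gene 1700056E22Rik lies beside the Dusp10 start and shares its promoter region, so that region cannot be given to one gene alone.

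Dusp16, the other phosphatase of JNK and p38 in the set, had the most gained regions among the 7, in the widest window, 192.0 kb. It had 13 regions in naive cells, 10 at 48 h and 16 at 72 h, with 6 gained and 9 lost at 48 h and 11 gained and 8 lost at 72 h. The 48 h shares were 60.0% gained (26.2 to 87.8%) and 69.2% lost (38.6 to 90.9%), beside 38.8% and 55.9% over the genome. The 72 h loss was 61.5% (31.6 to 86.1%), beside 49.2%. Its gained share at 72 h was 68.8% (41.3 to 89.0%), beside 49.2% over the genome, and 9 of its 28 regions were at 72 h only. When regions were given to the nearest gene only, Dusp16 gained 6 at 72 h and Dusp5 gained 8. With 48 h and 72 h peaks of a score of at least 50, Dusp16 had 8 gained and 9 lost at 72 h. All naive peaks were kept there, since they have no score. This filter therefore favours losses at any gene, and the drop cannot be read as a trait of Dusp16.

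The stronger gains of Dusp16 lay near the end of the gene where transcripts finish. The region chr6:134716145-134716558, inside that end, was absent from naive cells with scores of 200 at 48 h and 141 at 72 h, and chr6:134708247-134708507, 6.96 kb beyond it and inside Borcs5, was at 72 h only with a score of 214, the 89.1th percentile. At the other end, chr6:134807154-134807370 was at 72 h only with a score of 108. Beside the promoter region, chr6:134791943-134792416 was in all 3 lists and chr6:134791268-134791822, with a naive peak of 555 bp, in naive cells only. A region at Crebl2, chr6:134829855-134830620, was in all lists with scores of 194 and 295. Of the 28 regions 9 touched Borcs5 or Crebl2, and over all 7 windows 16 of 138 regions touched another protein-coding gene.

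Of the 138 regions 11 overlapped a promoter window of any gene, and 7 of these, 63.6%, were in all 3 lists, beside 79.3% of 10748 such regions over the genome. Of the 10 present in naive cells 3 were lost at 48 h, 30% (6.67 to 65.2%), beside 10.3%, and 2 at 72 h, 20.0% (2.52 to 55.6%), beside 7.0%. At 72 h 1 of 9 was gained, 11.1% (0.281 to 48.2%), beside 10.3%. Away from promoters the Dusp regions were gained and lost at rates near those of the genome. Of the 127 others 22 were in all 3 lists, 17.3% beside 17.4%, and at 72 h 38 of 69 were gained, 55.1% (42.6 to 67.1%), beside 58.4% of such regions over the genome, and 47 of 78 naive ones lost, 60.3% (48.5 to 71.2%), beside 58.7%. The 46 naive-only Dusp regions were 33.3% of the 138 (25.5 to 41.9%), beside 28.8% over the genome, and their median naive width was 226.5 bp, beside 193 bp.

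For each gene the 3 protein-coding genes with the nearest shares of the 7 classes of presence were sought among genes with at least 10 regions and none shared. Those most like Dusp6 were Rflnb, with 12, 4 and 3 regions in naive cells, at 48 h and at 72 h and a distance of 0.047, Wdr63, with 17, 7 and 4, and Itga9, with 30, 12 and 9. The distance is the total variation between class shares, 0 where they are equal. Dusp5 matched Susd1 and Dusp1 matched Tmem86a at a distance of 0, and the nearest to Dusp4 was 1600014C10Rik at 0.0604, to Dusp2 Tspoap1 at 0.0556, to Dusp10 Tubd1 at 0.0501 and to Dusp16 Dstn at 0.0714. Between 8417 and 8421 genes were compared for each.

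Other genes of the MAP kinase pathways, in the same windows, give the setting. In each of the 5 lists the shares of regions gained and lost at 72 h against naive cells were below the 49.2% of the genome. The 14 other dual-specificity phosphatases together gained 37 of 92 regions (40.2%) and lost 36 of 91 (39.6%), and 4 had more gained, 8 more lost and 2 equal numbers. Among them Dusp14, with 6 gained and 0 lost, and Dusp3, with 6 gained and 0 lost, had 7 and 6 regions at 72 h, against 1 and 0 in naive cells. At the other end Dusp26 had 0 gained and 3 lost, and Dusp9 2 gained and 5 lost.

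The ERK cascade, 16 genes, gained 57 of 153 regions (37.3%) and lost 73 of 169 (43.2%), with 7 genes more gained, 7 more lost and 2 equal. Sos1, an exchange factor that activates Ras, had 0 gained and 10 lost, and Nf1, a GTPase-activating protein that switches Ras off, 4 gained and 13 lost. Braf, a kinase of the cascade, had 5 gained and 1 lost. The p38 and JNK cascades, 22 genes, gained 86 of 188 (45.7%) and lost 75 of 177 (42.4%), with 12 genes more gained, 8 more lost and 2 equal. There Mapk13, which encodes p38δ, had 8 gained and 1 lost, Map2k6, a kinase that activates p38, 10 gained and 3 lost, and Map3k5, a stress kinase, 5 gained and 11 lost.

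The Sprouty and Spred inhibitors of Ras and ERK signalling, 7 genes, gained 13 of 43 regions (30.2%) and lost 20 of 50 (40.0%) at 72 h, with 4 genes more gained, 2 more lost and 1, Spry3, without any region. Spry4 had 0 gained and 5 lost, Spred2 2 gained and 8 lost, and Spry1 4 gained and 3 lost. The ERK-responsive transcription factors, 11 genes, gained 36 of 105 (34.3%) and lost 33 of 102 (32.4%), with 5 genes more gained, 5 more lost and 1 equal, and Egr1 had 0 gained and 4 lost while Egr2 had 7 gained and 2 lost. Medians of gained minus lost regions per gene in the 5 lists ran from -1 to 1, beside 0 over all genes, and the lowest single gene in them was Sos1 at -10.

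Marker genes of the labelled cells were counted with 10 kb on each side. At 7 Th17 genes there were 35 regions in naive cells, 49 at 48 h and 65 at 72 h, and at 6 genes of naive T cells there were 76, 28 and 35 in the same order. At 6 genes shared by T cells there were 47, 27 and 37, with Cd3e at 7, 5 and 4, Cd4 at 5, 6 and 6 and Cd2 at 12, 1 and 5. At markers of B cells 11 regions were counted in naive cells, 8 at 48 h and 12 at 72 h, and at markers of CD8 T cells and NK cells 10, 7 and 10. At myeloid markers there were 15, 5 and 6. Of these Itgam had 7, 1 and 1, Spi1 6, 2 and 2 and Cd14 2, 2 and 3. Csf1r, Adgre1 and Lyz2 were at 0 in every list. The part of other cells in the Dusp counts was not tested.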

How the data were processed

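ATAC-seq peak lists of naive CD4 T cells and of Th17 cultures at 48 h and 72 h were used, 1 list per condition. The submitters' processing notes name MACS2 2.2.6, deepTools, SAMtools 1.9 and Bowtie2 2.3.4.1, with build GRCm38/mm10. Nothing in the sources used here gives the calling threshold, the filters, a Tn5 shift or whether a list pools both libraries. The lists deposited by the authors hold peak positions, read as 0-based starts and printed 1-based, and at 48 h and 72 h a whole-number score deposited by the authors without a stated scale, which was used only within a list. In the naive list 1 blank line was left out.

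Peaks sharing at least 1 bp were merged and assigned to gene bodies of the RefSeq GRCm38.p6 table with 50 kb on each side. Shares have exact Clopper-Pearson 95% intervals (SciPy 1.17.1), which cover counting error only. A missing peak means that none passed the authors' calling, not that chromatin was closed. Merging and counting were tested on simulated lists. The genes and lists were chosen with earlier results of these data known. Regions named were those touching a gene or within 1 kb of it, up to 4 others per gene with the highest 72 h scores and up to 3 wide naive-only ones. Of the pathway lists, up to 3 genes with the highest and 3 with the lowest balance at 72 h were named. Alternatives changed the window, the gene assignment, the peak filter, the overlap and the merging distance. For the shares of all 7 genes together, each gene was also left out in turn.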

Additional observations from a re-analysis of the deposited data

Results flagged for a closer look

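Dusp16 had gained minus lost counts of opposite sign at the culture times, -3 at 48 h against naive cells and 3 at 72 h against naive cells. A higher count at 72 h was not particular to it. Dusp1 went from 0 to 1, Dusp4 from -5 to 0, Dusp5 from -6 to 0 and Dusp10 from -6 to -1. Dusp2 stayed at -1 and Dusp6 went from -10 to -12. The median over all genes went from -1 to 0. With 48 h and 72 h scores of at least 50, a filter that favours losses, Dusp16 had -1 at 72 h. The difference in sign at Dusp16 was not tested, since each condition has 1 peak list and the naive list enters both comparisons.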

How the results depend on the processing

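The 6 shares of gained and lost regions were recomputed under 15 alternatives, 8 of processing and 7 that left out 1 gene each. The latter keep most of the same regions, so their values were bound to lie near the reported share. In all, 89 of 90 values stayed within the 95% interval of the reported share. The exception was the share of 48 h regions lost at 72 h, 13.3% when peaks under their list's median width were left out, against 24.6%. Across alternatives, gained shares ran from 31.6 to 52.6% at 48 h and from 43.2 to 52.7% at 72 h against naive cells, and lost shares from 53.5 to 70.5% and from 48.8 to 65.9%. Gained minus lost counts changed sign in 12 of 112 recomputed values. Against naive cells, Dusp1 at 48 h and Dusp4 and Dusp5 at 72 h had equal numbers of gained and lost regions. Such a count has no sign to change, so its recomputed values are part of the 112 but could not be among the 12. They ran from -2 to 2 at Dusp1, from -5 to 2 at Dusp4 and from -3 to 2 at Dusp5. At Dusp2 the value of -1 became 1 with 10 kb windows and by nearest gene in both comparisons with naive cells, 1 at 72 h with 100 kb, 1 at 48 h with equal numbers of the widest peaks, and 2 at 48 h and 5 at 72 h without the narrower peaks. At Dusp10 the value of -1 at 72 h became 1 with 10 kb windows and by nearest gene. With scores of at least 50 at 48 h and 72 h, the values at 72 h became -2 at Dusp1 and -1 at Dusp16. That filter leaves out no naive peak, since naive peaks have no score, so it favours losses. The causes of the sign changes were not tested. Dusp6 stayed negative throughout, from -19 to -2 at 72 h and from -18 to -2 at 48 h, and Dusp4 (-7 to -3) and Dusp5 (-7 to -2) stayed negative at 48 h. No paired analysis was possible because 1 peak list per condition was analysed. The depth is unknown, so a peak missing from a list could not be set against the reads behind it.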
